A study of Homo sapiens with 20 samples.

Results

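The gene set described here holds 41 genes of homologous recombination and of the Fanconi anaemia pathway. They were taken by gene symbol, current or former, from the platform annotation of an Illumina HumanHT-12 v4 BeadChip series on SKBr3 cells. No measured value entered this rule, but the list was drawn up with earlier results of these data known. In that annotation 37 of the 41 had a probe and 4 had none, and those 4 are not analysed here. A probe was kept when its detection p-value was under 0.01 on both arrays of at least 1 group, and 29 of the 41 genes passed through at least 1 probe, of 9592 genes measured in all. The 8 that did not pass were BRIP1, RAD50, RAD51B, RAD52, ATR, FANCC, FANCF and FANCM, and no level is given for them. Of the 29 measured genes, 18 were detected in every group and 11 were not. RAD51D and RAD54B passed through 1 group, EME1 through 2 and FANCB through 3, all of them parental or resistant groups, and BLM was detected in 6 of the 10 groups.

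SKBr3 is a human breast cancer line with amplified ERBB2. Every sample had received either a control siRNA (siC) or a pool of siRNAs against the orphan nuclear receptor ERRα (siERRα), encoded by ESRRA, 60 h before collection, so that transfection was shared by all 10 groups of 2 arrays. In one experiment the cells were deprived of serum and then given vehicle (starved), EGF or heregulin (HRG), for 24 h and at 100 µM per the labels, whereas the study's methods give a shorter exposure. Deprivation of serum is stated as 24 h in one label and as 48 h in another. The other experiment compared parental SKBr3 cells given DMSO with lapatinib-resistant SKBr3 cells, a single line derived by long exposure to this inhibitor of EGFR and ERBB2 and labelled as held in lapatinib at 1 µM in one place and at 2 µM in another. Resistance and the presence of the drug cannot be told apart in these samples. No label tells if the 2 replicates of a group were grown apart, and the p-values therefore refer to a spread between arrays that may be technical.

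Homologous recombination repairs a broken chromosome by copying the intact sister. The MRE11 complex and EXO1 trim the broken ends, ATM and the checkpoint kinases signal the damage, BRCA1 with BARD1 and PALB2 prepares the single strand for exchange, and accessory genes such as RAD51C, XRCC2, XRCC3 and RAD54L help it to invade and pair. The joined molecules are then taken apart, either by BLM with TOP3A and RMI1 or by nucleases such as MUS81 with EME1 held on the SLX4 scaffold. The Fanconi core complex, with the ubiquitin ligase FANCL and its conjugating partner UBE2T, marks crosslinked DNA for incision and hands it to the same machinery, and many of these genes are transcribed most strongly around S phase.

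The promoters of 5 members are shown because the results turn on FANCE and MUS81, because RMI1 and EXO1 carried a match to an E2F word, and because BRCA1 and EXO1 carried a match to an ERRα response word. For RMI1, EXO1 and BRCA1 the matches lay only in the window shown, and not at their other annotated start. Each window runs from 250 bases before to 50 bases after a RefSeq start (GRCh38.p14), is written 5′ to 3′ on the strand of the gene, and has matches in capitals. The words searched on both strands were TTTCCCGC, TTTCGCGC, TTTGCCGC and TTTGGCGC for E2F, TTTGAA for the cell cycle homology region, TGACGTCA for the cAMP response element and AAGGTCA for the ERRα response element, none of which contains another.
FANCE, chr6:35452088-35452387, plus strand: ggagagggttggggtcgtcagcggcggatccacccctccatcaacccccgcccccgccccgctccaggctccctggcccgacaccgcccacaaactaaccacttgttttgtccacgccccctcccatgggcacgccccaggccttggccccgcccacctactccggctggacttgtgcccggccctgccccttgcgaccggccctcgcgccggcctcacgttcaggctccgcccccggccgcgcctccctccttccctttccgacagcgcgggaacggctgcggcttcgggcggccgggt
MUS81, chr11:65860183-65860482, plus strand: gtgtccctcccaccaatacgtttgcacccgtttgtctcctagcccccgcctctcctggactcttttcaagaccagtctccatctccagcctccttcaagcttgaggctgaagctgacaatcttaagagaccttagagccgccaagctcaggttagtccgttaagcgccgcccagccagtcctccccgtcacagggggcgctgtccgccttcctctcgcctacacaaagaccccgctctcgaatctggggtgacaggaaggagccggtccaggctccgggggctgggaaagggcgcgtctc
RMI1, chr9:83980555-83980854, plus strand: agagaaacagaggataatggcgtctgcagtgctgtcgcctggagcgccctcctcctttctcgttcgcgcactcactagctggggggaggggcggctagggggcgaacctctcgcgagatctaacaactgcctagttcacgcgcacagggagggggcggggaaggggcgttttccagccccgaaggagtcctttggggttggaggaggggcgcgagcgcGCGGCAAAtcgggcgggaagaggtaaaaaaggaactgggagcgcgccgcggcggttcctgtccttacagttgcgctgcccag
EXO1, chr1:241847954-241848253, plus strand: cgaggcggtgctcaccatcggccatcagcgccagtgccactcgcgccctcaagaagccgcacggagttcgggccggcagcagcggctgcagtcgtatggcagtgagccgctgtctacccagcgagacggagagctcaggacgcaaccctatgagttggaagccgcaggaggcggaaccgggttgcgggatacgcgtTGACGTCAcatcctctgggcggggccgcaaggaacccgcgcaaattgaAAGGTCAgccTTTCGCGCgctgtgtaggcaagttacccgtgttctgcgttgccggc
BRCA1, chr17:43170278-43170577, minus strand: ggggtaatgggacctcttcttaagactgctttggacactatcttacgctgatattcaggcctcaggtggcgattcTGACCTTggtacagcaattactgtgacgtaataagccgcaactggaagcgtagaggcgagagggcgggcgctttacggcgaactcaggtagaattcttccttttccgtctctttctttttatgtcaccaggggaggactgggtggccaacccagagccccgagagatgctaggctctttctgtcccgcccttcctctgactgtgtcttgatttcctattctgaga

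In these letters FANCE and MUS81 held none of the words, RMI1 held an E2F word on the other strand from 32 bases before the start, and EXO1 held the cAMP response word, the ERRα response word and an E2F word in that order. BRCA1, RMI1 and EXO1 each had 2 annotated starts, of which the window with a match is shown, and the other window of each held none of the words. For BRCA1 this other window lies downstream on the strand of the gene, at chr17:43125315-43125614. It shares a long run of similar letters with the window shown, but not the ERRα response word. The BRCA1 match thus belongs to the upstream start alone. Which start these cells use was not measured. RefSeq gave 36 such windows for 26 of the 29 measured members. An E2F word stood in 3 of the 36 (8.33%), in EXO1, RMI1 and XRCC2, against 3.31% of all 35116 windows. The ERRα response word stood in 3 (8.33%), in ATM, BRCA1 and EXO1, against 3.92% of all windows, the cAMP response word in 4 (11.1%) against 1.85%, and the cell cycle homology word in 2 (5.56%) against 15.2%. A match is a description of the letters and does not show binding.

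The number of arrays, 2 a group, limits the precision of all values. EGF siERRα replicate 1 stood apart, with a correlation of 0.83 to 0.875 with the other 19 arrays, which correlated with one another at 0.933 to 0.99, and with 12151 detected probes against 12582 to 15177. All groups share 1 spread per gene, whose median residual SD was 0.279 with 20 arrays and 0.206 with the 19 others, and values with 19 arrays are therefore set beside those results that moved without it. On it XRCC2 read 10.31 against 7.56 to 8.23 on the other 19 arrays, and NBN read 8.95 against 10.44 to 11.06. ESRRA itself ranged from 8.53 to 9.17 on the 10 siC arrays and from 6.40 to 8.19 on the 10 siERRα arrays, without overlap, and fell by 1.47 on average (adjusted p = 0.000529). Of the listed markers of epithelial cells and ERBB2 amplification, EPCAM, KRT7, KRT8, KRT19, ERBB2 and GRB7 were detected on all 20 arrays. KRT18 was detected on 19 and CDH1 on none. Of the measured markers of mesenchymal, leukocyte and endothelial cells, VIM and HLA-DRA were detected on all 20 arrays, CDH5 on 19, CD14 on 10, VWF on 9, LYZ on 6, and COL3A1, FN1 and KDR on 1 each. COL1A1, COL1A2, ZEB1, PTPRC, CD3E and PECAM1 were detected on none.

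Treatment with growth factors lowered part of this gene set and raised 1 member. Averaged over siC and siERRα cells, 10 of the 29 members passed the test after EGF, 9 lower and 1 higher, where 16.2% of all genes did. ATM, CHEK1, EXO1, FAN1, FANCE, FANCG, FANCL, MRE11 and RMI1 were lower and MUS81 was higher. After HRG 5 members passed, with FAN1, FANCE, RMI1 and SLX4 lower and MUS81 higher, where 9.32% of all genes did. All values are log2 intensities, and the test is that of limma with Benjamini-Hochberg adjustment over the 9592 genes. In bulk RNA, fewer cells that express a gene and less RNA per cell cannot be told apart.

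Without the array that stood apart, 7 members passed after EGF, CHEK1, EXO1, FAN1, FANCE, RMI1 and SLX4 lower and MUS81 higher, against 18.1% of all genes. After HRG 11 passed, against 19.6% of all genes, as BRCA1, CHEK1, CHEK2, FANCG, MRE11 and RAD54B joined the 5 above, all lower. The RAD54B probe was detected on 0 of the 4 HRG arrays and on 2 of the 4 starved arrays, so that its call lies at background and gives no fold. The median difference of the members was -0.52 after EGF and -0.33 after HRG with 20 arrays, whereas the median over all genes was -0.03 and -0.04. With 19 arrays the median after EGF was -0.36, against -0.06 for all genes. Of the 29 members, 22 had a negative difference after EGF (25 with 19 arrays) and 24 after HRG, compared with 52.9% (58.4% with 19 arrays) and 56.0% of all genes. All 4 EGF arrays lay below all 4 starved arrays for 10 members (34.5%), against 9.87% of all genes, and all 4 HRG arrays did so for 12 members (41.4%), against 12.3% of all genes. The 12 include RAD54B, whose HRG arrays were at background. The medians and sign counts also hold RAD51D, RAD54B, EME1 and FANCB, whose probes lay mostly at background in the starved and growth factor groups. The 2 comparisons share their starved arrays.

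**Figure D1:**
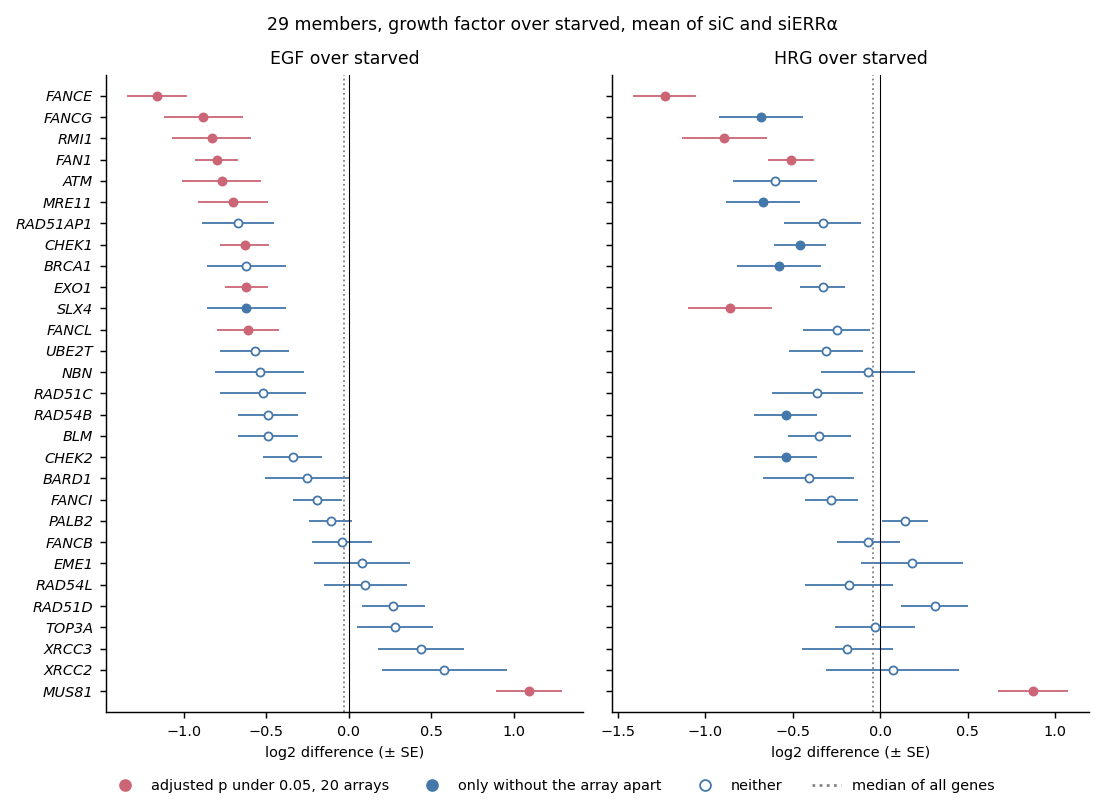
Difference in log2 intensity between growth factor and starved cells, averaged over siC and siERRα, for the 29 measured members (points, ± SE, 4 arrays a side), with EGF on the left and HRG on the right. Filled red points passed the test with 20 arrays, filled blue points only without the array that stood apart, and the dotted line is the median of all 9592 genes, so that most members lie to its left while MUS81 lies to its right.

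In siC cells alone, 1 member passed after EGF, against 5.23% of all genes, and 1 after HRG, against 2.91%, and this was FANCE, lower in both. With 19 arrays the counts rose to 5 after EGF (11.7% of all genes), with BLM, FANCE, RMI1 and SLX4 lower and MUS81 higher, and to 4 after HRG (7.64%), with FAN1, FANCE and SLX4 lower and MUS81 higher. In siERRα cells 9 members passed after EGF (11.6% of all genes) but only FAN1 and MUS81 without the array that stood apart (5.26%). After HRG in siERRα cells FANCE passed (2.65% of all genes), and with 19 arrays 6 members did (8.05%), BRCA1, FAN1, FANCE, MRE11 and RMI1 lower and MUS81 higher. No member passed the test of a difference between the siC and the siERRα response.

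Among Fanconi core genes, FANCE was called after both factors. FANCE encodes the subunit that links the core complex to its substrate. Its log2 intensity was 8.51 and 8.59 in starved siC cells and 8.76 and 8.88 in starved siERRα cells. It was 7.07 and 7.35 after EGF in siC cells and 7.83 and 7.85 in siERRα cells, and 7.17 and 7.76 after HRG in siC cells and 7.09 and 7.79 in siERRα cells. All 8 growth factor arrays were below all 4 starved arrays, and the array that stood apart read like its replicate. FANCE fell by 1.16 after EGF (SE 0.18, 2.23-fold, adjusted p = 0.000897) and by 1.23 after HRG (SE 0.18, 2.35-fold, adjusted p = 0.000948). The HRG call held in all 30 alternatives, whereas the EGF call was lost in 1 of 30, with array weights (adjusted p = 0.0762). In siC cells alone the fall was 1.34 after EGF (adjusted p = 0.0084) and was no longer called without starved siC replicate 1 (0.0542), starved siC replicate 2 (0.0718) or EGF siC replicate 1 (0.102). The siC fall of 1.08 after HRG (adjusted p = 0.0402) was called in 16 of 30 alternatives and lost on removal of either starved siC array (0.169 and 0.228) or of HRG siC replicate 1 (0.354), among others.

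FANCG, a core subunit also known as XRCC9, was 9.51 and 9.72 in starved siC cells and 9.97 and 9.71 in starved siERRα cells, 8.57 and 9.20 and 8.37 and 9.23 after EGF, and 8.66 and 9.34 and 8.72 and 9.46 after HRG, siC first in each. Neither treated range reached the starved range. Its difference was -0.88 after EGF (SE 0.24, adjusted p = 0.0262, or 0.0675 without the array that stood apart) and -0.68 after HRG (adjusted p = 0.104, or 0.0392). FANCL, the ubiquitin ligase of the complex, was 7.79 and 7.50 in starved siC cells and 7.65 and 7.19 in starved siERRα cells, 7.22 and 7.19 and 6.28 and 6.99 after EGF, and 6.88 and 7.18 and 7.27 and 7.80 after HRG, siC first in each. It differed by -0.61 after EGF (SE 0.19, adjusted p = 0.0416) but by -0.43 without the array that stood apart (adjusted p = 0.106), and its EGF and starved arrays overlapped. After HRG FANCL differed by -0.25 (adjusted p = 0.485). UBE2T, the conjugating enzyme that serves FANCL, differed by -0.57 after EGF (-0.27 with 19 arrays) and by -0.31 after HRG, and FANCI, which the complex ubiquitinates, by -0.19 and -0.28, none of them called. FANCB, a core subunit encoded on the X chromosome, differed by -0.04 and -0.07 with a probe that was detected on none of the starved and growth factor arrays, and a second probe gave -0.38 and -0.41.

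The nucleases moved in opposite directions. MUS81, the catalytic subunit of a structure-specific endonuclease, was 8.07 and 7.91 in starved siC cells and 7.68 and 7.95 in starved siERRα cells. It was 8.57 and 8.86 after EGF in siC cells and 9.79 and 8.77 in siERRα cells, the first of these on the array that stood apart, and it was 8.86 and 8.74 after HRG in siC cells and 8.62 and 8.88 in siERRα cells. The 8 growth factor arrays, from 8.57 to 9.79, lay above the 12 starved, parental and resistant arrays, from 7.63 to 8.39. MUS81 rose by 1.09 after EGF (SE 0.20, 2.13-fold, adjusted p = 0.00278) and by 0.84 without the array that stood apart (adjusted p = 0.00303). After HRG it rose by 0.87 (SE 0.20, 1.83-fold, adjusted p = 0.016), a call lost without starved siC replicate 2 (0.0624), starved siERRα replicate 1 (0.0646), HRG siC replicate 1 (0.0629) or HRG siERRα replicate 2 (0.0586). EME1, the partner of MUS81 in the enzyme, differed by 0.08 after EGF and 0.18 after HRG, with a probe that was not detected in full in any starved or growth factor group.

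FAN1, a nuclease that acts on crosslinked DNA, was 6.62 and 6.54 in starved siC cells and 6.29 and 6.28 in starved siERRα cells. After EGF it was 6.33 and 6.14 in siC cells and 4.74 and 5.33 in siERRα cells, and after HRG 6.15 and 6.03 in siC cells and 5.70 and 5.81 in siERRα cells. Within each siRNA all treated arrays were below the starved ones, and the lowest levels were those of EGF with siERRα, where the probe was not well above background on either array. The measured difference of FAN1 was -0.80 after EGF (SE 0.13, adjusted p = 0.00133), and with EGF siERRα set at the background floor it was -0.29, so that the fall is known only to be at least 0.29. FAN1 fell by 0.51 after HRG (SE 0.13, adjusted p = 0.0286), where its probe was detected on 1 of the 2 siERRα arrays. In siERRα cells the starved level was at least 1.17-fold above that after EGF (adjusted p = 0.00156), a bound set by background. The HRG call was lost on removal of any of the 8 starved and HRG arrays (adjusted p from 0.0575 to 0.105), whereas with 19 arrays it was 0.00292.

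SLX4, the scaffold that holds MUS81 and other nucleases, was 7.01 and 7.44 in starved siC cells and 7.09 and 7.07 in starved siERRα cells, 6.55 and 5.71 and 7.41 and 6.46 after EGF, and 6.30 and 6.01 and 6.72 and 6.14 after HRG, siC first in each. Its HRG arrays lay below all starved arrays, and so did its EGF arrays other than the one that stood apart, which read 7.41, though its probe was detected on only 1 of the 2 EGF siC arrays. It fell by 0.86 after HRG (SE 0.24, adjusted p = 0.0405), a call that held in 13 of 29 alternatives and was lost on removal of any starved or HRG array (adjusted p from 0.0512 to 0.148). After EGF the difference was -0.62 (adjusted p = 0.0979) with 20 arrays and -0.86 (adjusted p = 0.0197) with 19. EXO1, an exonuclease of end resection and mismatch repair, was 9.10 and 9.14 in starved siC cells and 9.08 and 9.13 in starved siERRα cells, 8.69 and 8.54 and 8.14 and 8.59 after EGF, and 8.92 and 8.79 and 8.66 and 8.76 after HRG, siC first in each. Neither treated range overlapped the starved range. EXO1 fell by 0.62 after EGF (SE 0.13, adjusted p = 0.0064, or 0.0118 with 19 arrays), and its difference of -0.33 after HRG was not called (adjusted p = 0.149). A second EXO1 probe gave -1.0 after EGF, or -0.45 with 19 arrays, and -0.34 after HRG.

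The EGF calls differed in how far they depended on single arrays. Those of FANCE, FAN1, EXO1 and MUS81 outlasted the removal of each of the 20 arrays in turn. In a fit on the compared groups alone, which holds the array that stood apart, only the FANCE call remained. The other calls thus rest on the spread shared with the groups not compared. Removal of 1 array ended that of CHEK1 for 3 arrays, of RMI1 for 5, of FANCG for 6, of MRE11 for 9, of FANCL for 12 and of ATM for 13, with adjusted p-values up to 0.153, the array that stood apart being among them for FANCG, MRE11, FANCL and ATM.

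**Figure D2:**
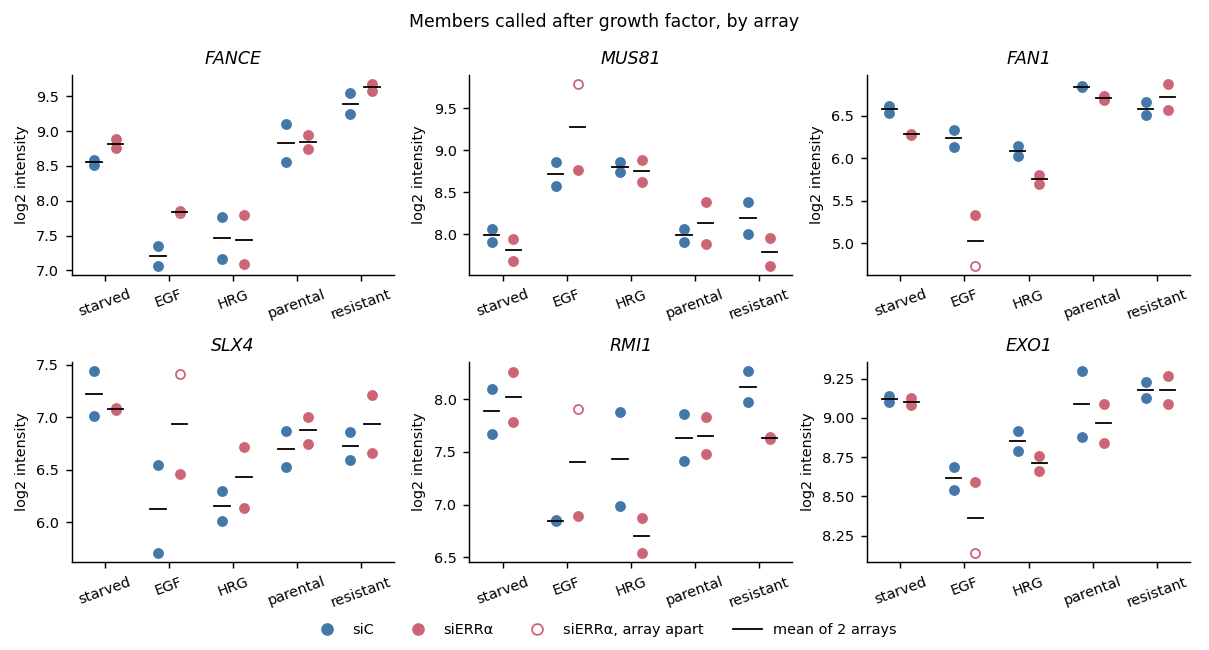
Log2 intensity on each of the 20 arrays (points) and the mean of 2 arrays (bars) for FANCE, MUS81, FAN1, SLX4, RMI1 and EXO1, by setting and siRNA, with the array that stood apart as an open circle. FANCE reaches at most 7.85 on the growth factor arrays and at least 8.51 elsewhere, and MUS81 shows the opposite arrangement.

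Of the genes that dissolve joined molecules, RMI1, a stabilizing subunit of the BLM complex, was 7.67 to 8.26 on the starved arrays. After EGF it was 6.85 and 6.84 in siC cells and 7.91 and 6.89 in siERRα cells, the first of the latter on the array that stood apart, and after HRG it was 6.99 and 7.88 in siC cells and 6.54 and 6.87 in siERRα cells. HRG siC replicate 2 and the array that stood apart reached the starved range, and the other 6 treated arrays did not. RMI1 fell by 0.83 after EGF (SE 0.24, adjusted p = 0.0343) and by 1.09 with 19 arrays (adjusted p = 0.00445). It fell by 0.89 after HRG (SE 0.24, adjusted p = 0.0362, or 0.00735 with 19 arrays), and the HRG call was lost, among others, without HRG siC replicate 1 (0.16) or starved siERRα replicate 1 (0.133). A second probe of RMI1 gave -1.08 after EGF (-0.95 with 19 arrays) and -0.86 after HRG. BLM, the helicase of the complex, was 6.37 and 6.22 in starved siC cells and 6.03 and 5.97 in starved siERRα cells, 5.04 and 5.88 and 5.89 and 5.80 after EGF, and 5.82 and 6.0 and 5.80 and 5.55 after HRG, siC first in each. In siC cells both EGF arrays, of which 1 was detected, lay below both starved arrays, with a difference of -0.83 (SE 0.26, adjusted p = 0.0889, or 0.0491 with 19 arrays). TOP3A, its topoisomerase, differed by 0.28 after EGF, or by -0.04 without the array that stood apart, where it read 9.97, and by -0.03 after HRG.

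Of the sensor and checkpoint genes, MRE11, ATM and CHEK1 passed after EGF with 20 arrays and MRE11, CHEK1 and CHEK2 after HRG with 19. MRE11, the nuclease of the end-binding complex, was 7.02 and 6.66 in starved siC cells and 7.07 and 6.81 in starved siERRα cells, 6.56 and 6.44 and 5.39 and 6.38 after EGF, and 6.29 and 6.50 and 5.94 and 6.14 after HRG, siC first in each. All treated arrays lay below the starved ones. Its difference was -0.70 after EGF (adjusted p = 0.0377, or 0.0912 with 19 arrays) and -0.67 after HRG (adjusted p = 0.0634, or 0.00921 with 19), and its second probe gave -0.68 and -0.46. The MRE11 probe, like that of ATM, was detected on 1 of the 2 EGF siERRα arrays. NBN, its partner, differed by -0.54 after EGF, or by -0.14 without the array that stood apart, and by -0.07 after HRG, and a second NBN probe gave 0.01, or -0.30 with 19 arrays, and -0.26. ATM, the apical kinase of break signalling, was 6.67 and 6.80 in starved siC cells and 7.20 and 6.75 in starved siERRα cells, 6.49 and 6.14 and 5.43 and 6.28 after EGF, and 6.18 and 6.19 and 6.56 and 6.09 after HRG, siC first in each, again without overlap between treated and starved arrays. Its difference of -0.77 after EGF (adjusted p = 0.0413) was -0.56 with 19 arrays (adjusted p = 0.109), and a second ATM probe gave -0.32, or -0.35 with 19.

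CHEK1, the checkpoint kinase of S phase and G2, was 8.05 and 8.34 in starved siC cells and 8.31 and 8.12 in starved siERRα cells, 7.57 and 7.87 and 7.14 and 7.71 after EGF, and 7.61 and 7.80 and 7.78 and 7.80 after HRG, siC first in each. No treated array reached the starved range. It fell by 0.63 after EGF (SE 0.15, adjusted p = 0.0137, or 0.0297 with 19 arrays), a call lost without starved siC replicate 2 (0.0612), starved siERRα replicate 1 (0.0564) or EGF siC replicate 1 (0.0643). After HRG CHEK1 differed by -0.46 (adjusted p = 0.0831, or 0.0227). CHEK2, the checkpoint kinase downstream of ATM, was 7.81 and 7.76 in starved siC cells and 7.88 and 7.67 in starved siERRα cells, 6.92 and 7.68 and 7.80 and 7.38 after EGF, and 7.32 and 7.33 and 6.98 and 7.33 after HRG, siC first in each, so that its HRG arrays but not its EGF arrays lay below all starved arrays. It differed by -0.34 after EGF (-0.44 with 19 arrays) and by -0.54 after HRG (adjusted p = 0.0761, or 0.0341 with 19 arrays). A second CHEK2 probe gave -1.38 after EGF, or -0.80 with 19 arrays, and -0.43 after HRG.

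BRCA1, the scaffold of recombination, behaved differently with its 2 probes. On its brighter probe it was 6.39 and 6.54 in starved siC cells, 6.58 and 6.66 after EGF and 6.16 and 6.74 after HRG. In siC cells both EGF arrays thus lay slightly above the starved ones, and the HRG arrays overlapped them. In siERRα cells it was 6.84 and 6.87 when starved, 4.87 and 6.06 after EGF and 5.34 and 6.09 after HRG, lower on every treated array. In both treated groups the probe was detected on 1 of the 2 arrays, so that the sizes of these differences rest partly on background. The measured difference in siERRα cells was -1.39 after EGF (adjusted p = 0.0223, or -0.80 and 0.157 without the array that stood apart) and -1.14 after HRG (adjusted p = 0.107, or 0.0133 with 19 arrays). The differences of this response from that in siC cells, -1.55 for EGF and -1.13 for HRG, were not called (adjusted p = 0.476 and 1). The second probe gave -0.91 after EGF and -1.15 after HRG in siC cells, where the brighter probe gave 0.15 and -0.02. In siERRα cells the second probe gave -0.66 and -0.79. Its difference of responses thus had the opposite sign, at 0.25 for EGF and 0.36 for HRG. BARD1, the ubiquitin ligase partner of BRCA1, differed by -0.25 after EGF, or by -0.53 with 19 arrays, and by -0.41 after HRG. PALB2, a binding partner of BRCA1, was 6.49 and 6.64 in starved siC cells and 6.60 and 6.73 in starved siERRα cells, 6.51 and 6.51 and 6.43 and 6.56 after EGF, and 6.43 and 6.89 and 6.80 and 6.89 after HRG, siC first in each. Its treated and starved arrays overlapped, its differences were -0.11 and 0.14, and its 20 arrays ran from 6.23 to 6.89.

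The accessory genes of strand invasion and pairing gave no call in either averaged comparison with 20 arrays. RAD51C differed by -0.52 after EGF, or by -0.20 with 19 arrays, and by -0.36 after HRG, and none of these was called. Its other 2 probes gave -0.30 and -0.87 after EGF, or -0.22 and -0.43 with 19 arrays. RAD51AP1, an accessory gene of strand pairing, was 9.10 and 9.28 in starved siC cells and 9.34 and 9.47 in starved siERRα cells, 8.72 and 9.21 and 7.70 and 8.91 after EGF, and 9.06 and 9.0 and 8.77 and 9.02 after HRG, siC first in each. It differed by -0.67 after EGF (adjusted p = 0.0516) and -0.33 after HRG, and it passed after EGF in siERRα cells with 20 arrays (-1.10, adjusted p = 0.0378) and not with 19 (adjusted p = 0.254). RAD51AP1 read 7.70 on the array that stood apart, and its averaged EGF difference was -0.36 with the 19 others. XRCC2 differed by 0.58 and 0.07, XRCC3 by 0.44 and -0.19, and RAD54L, a motor protein that drives strand exchange, by 0.10 and -0.18, and without that array the EGF differences became -0.06, 0.22 and -0.25. RAD54B, another motor protein of this family, was 5.82 and 5.32 in starved siC cells and 5.74 and 5.84 in starved siERRα cells, 5.59 and 5.21 and 4.79 and 5.16 after EGF, and 4.98 and 5.20 and 5.25 and 5.12 after HRG, siC first in each. Its HRG arrays lay below the starved arrays, and the measured difference after HRG was -0.54 (adjusted p = 0.08, or 0.0398 with 19 arrays), but no HRG array was detected and no difference remained with HRG at the background floor. RAD51D differed by 0.27 and 0.31, and neither RAD51D nor RAD54B was detected on both arrays of any starved or growth factor group.

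HRG and EGF were also compared with each other. In siC cells 0 of the 29 members passed limma's test of HRG against EGF, where 0% of all genes did, the count at an unadjusted p under 0.05 was 0 with limma and 0 with the methods' t-test, and the differences ran from -0.38 to 0.59. For FANCE the difference, HRG over EGF, was 0.25 (SE 0.26) and for MUS81 0.09 (SE 0.29), and this design does not show that the factors act alike.

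Among the other lists, genes of proliferation and S phase held calls in 1 direction with 20 arrays. After EGF the mismatch and base excision repair lists also held several lower genes, while other repair lists held few. Of 34 measured genes of proliferation and S phase, 10 were lower and 0 higher after EGF and 6 were lower and 0 higher after HRG, with medians of -0.33 and -0.30, where 7.32% and 4.15% of all genes were lower. With 19 arrays 11 and 10 were lower and RRM2 was higher in both, where 9% and 9.76% of all genes were lower. Among them E2F2, an activator of S phase genes, fell by 1.16 after EGF (adjusted p = 0.00176) and by 1.15 after HRG (adjusted p = 0.00299), WEE1, an inhibitor of mitotic entry, by 1.09 and 0.79, and TOP2A, a topoisomerase of dividing cells, by 0.51 and 0.50. Whether this shift had a part in the differences of the members was not tested.

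Of 44 other measured homologous recombination and Fanconi genes, 2 were lower after EGF, RMI2 and FIGNL1, and 4 after HRG, RPA2, MND1, RMI2 and CENPX, with medians of -0.16 and -0.19 and none higher, and with 19 arrays 6 were lower after each factor. Over all genes, 7.32% were lower after EGF and 4.15% after HRG, or 9% and 9.76% with 19 arrays. RMI2, which binds RMI1 in the BLM complex, fell by 1.39 after EGF (adjusted p = 0.0139) and by 1.37 after HRG (adjusted p = 0.0221).

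In the other repair pathways, 4 of 14 mismatch repair genes were lower after EGF, POLD3, PCNA, RFC1 and RFC3, and 1 after HRG, POLD3, with medians of -0.41 and -0.21, and with 19 arrays 5 and 3 were lower. Of 17 base excision repair genes 4 were lower after EGF and 1 after HRG, XRCC1, the scaffold of single-strand break repair, which fell by 1.06 (adjusted p = 0.00525), and with 19 arrays 5 were lower after EGF and 4 lower and 1 higher, TDG, after HRG. Of 16 nucleotide excision repair genes 1 was lower after EGF and 2 after HRG, with XPC, the damage sensor, lower in both by 0.82 and 0.88, and with 19 arrays 3 and 2 were lower. Among 13 genes of non-homologous end joining, the competing route of break repair, RIF1 was higher after EGF and 0 passed after HRG (19 arrays: 0 and 0), with medians of 0.05 and 0.02, and among 5 genes of translesion synthesis 0 passed with 20 arrays and HLTF was lower after EGF with 19. Of 19 repressors and activators of repair gene transcription, E2F4, E2F3 and E2F6 were higher and E2F2 and LIN9 lower after EGF, with 3 in each direction with 19 arrays. After HRG E2F4 was higher and E2F2 and LIN54 lower, with 2 higher and 3 lower with 19 arrays. The lists overlap, since E2F2 belongs to more than 1 of them. With 20 arrays 8.9% of all genes were higher after EGF and 5.17% after HRG, and the shares that were lower are those given above.

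**Figure D3:**
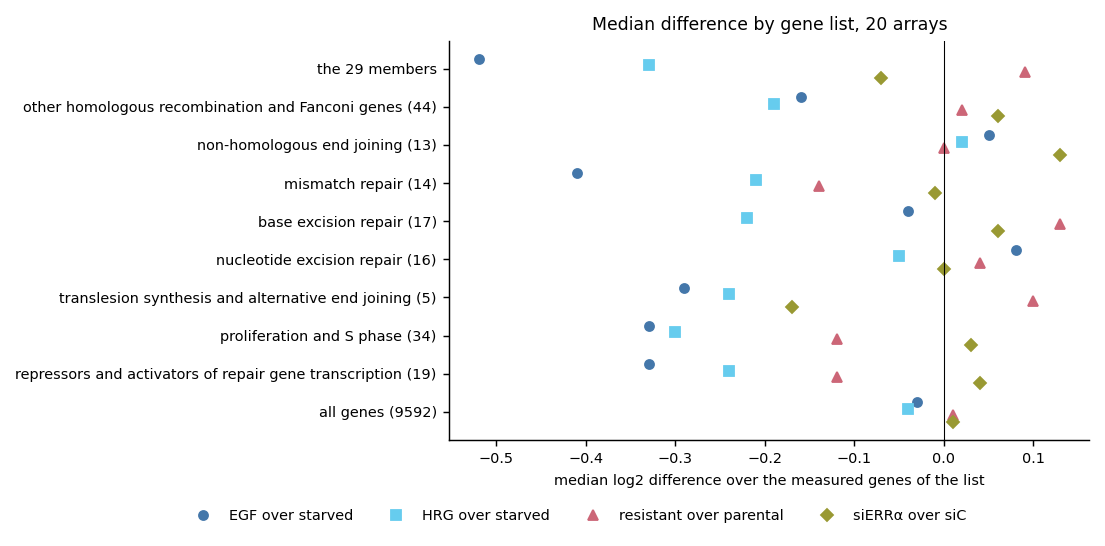
Median difference in log2 intensity over the measured genes of each list (number in brackets), for EGF and HRG over starved cells, resistance over parental cells and siERRα over siC, each from 20 arrays, with the median of all 9592 genes in the lowest line. The members lie at -0.52 after EGF and at -0.33 after HRG, and with 19 arrays, not plotted, the members lay at -0.36 and mismatch repair at -0.37 after EGF, while the lists lie between -0.17 and 0.13 for siERRα and between -0.14 and 0.13 for resistance.

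The siRNA against ERRα, which the study used to find the genes that depend on this receptor, gave few calls over all genes. The low counts of members below are therefore no result about the set. In starved, HRG-treated, parental and resistant cells 0 of 29 members passed limma's test, where 0.0104%, 0%, 0% and 0.0104% of all genes did, and the counts at an unadjusted p under 0.05 were 0, 2, 0 and 1 with limma and 2, 1, 1 and 0 with the methods' t-test. Averaged over the 5 settings the count was 0, against 0.0104% of all genes with 20 arrays and 0.0209% with 19. The methods' t-test gave 0 members at an unadjusted p under 0.05. It pooled the arrays of each siRNA and left the differences between settings in its error, so that this 0 shows little. With limma 3 members had an unadjusted p under 0.05. These 3 were FAN1, whose average holds the EGF siERRα arrays on which it was not detected, at -0.37 (SE 0.08, adjusted p = 0.239, or -0.31 and 0.0954 with 19 arrays), MRE11, at -0.35 (adjusted p = 0.498), and BRCA1, at -0.36 (adjusted p = 0.551). The second probes of MRE11 and BRCA1 gave -0.01 and 0.01. The differences over the 29 members ran from -0.37 to 0.35 and had a median of -0.07, against 0.01 for all genes.

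In EGF-treated cells FAN1 passed with 20 arrays, as 1 of 29 members where 0.073% of all genes did, and none passed with 19 arrays, where 0% of all genes did. The siC level of FAN1 was at least 1.14-fold above the siERRα level, a bound set by background, and the measured difference was -1.20 (adjusted p = 0.0394), or -0.91 (adjusted p = 0.167) with 19 arrays. Both siERRα arrays of FAN1 lay below both siC arrays in starved, EGF-treated, HRG-treated and parental cells, by 0.29, 1.20, 0.33 and 0.14 in the means, while in resistant cells they overlapped, at 6.57 and 6.88 against 6.66 and 6.51. In the test of a siERRα response that differs from that of starved cells, 0 members passed for EGF (0% of all genes, 3 members at an unadjusted p under 0.05) and 0 for HRG (0%, 1 member), and 0 passed between resistant and parental cells (0%, 0 members). For FAN1 the response in EGF differed from that in starved cells by -0.91 (SE 0.26, adjusted p = 0.476). The members with a window that held the ERRα response word had siERRα differences of -0.36 (BRCA1), 0.02 (ATM) and -0.11 (EXO1), which were not called. In BRCA1 and EXO1 the downstream window lacked the word.

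**Figure D4:**
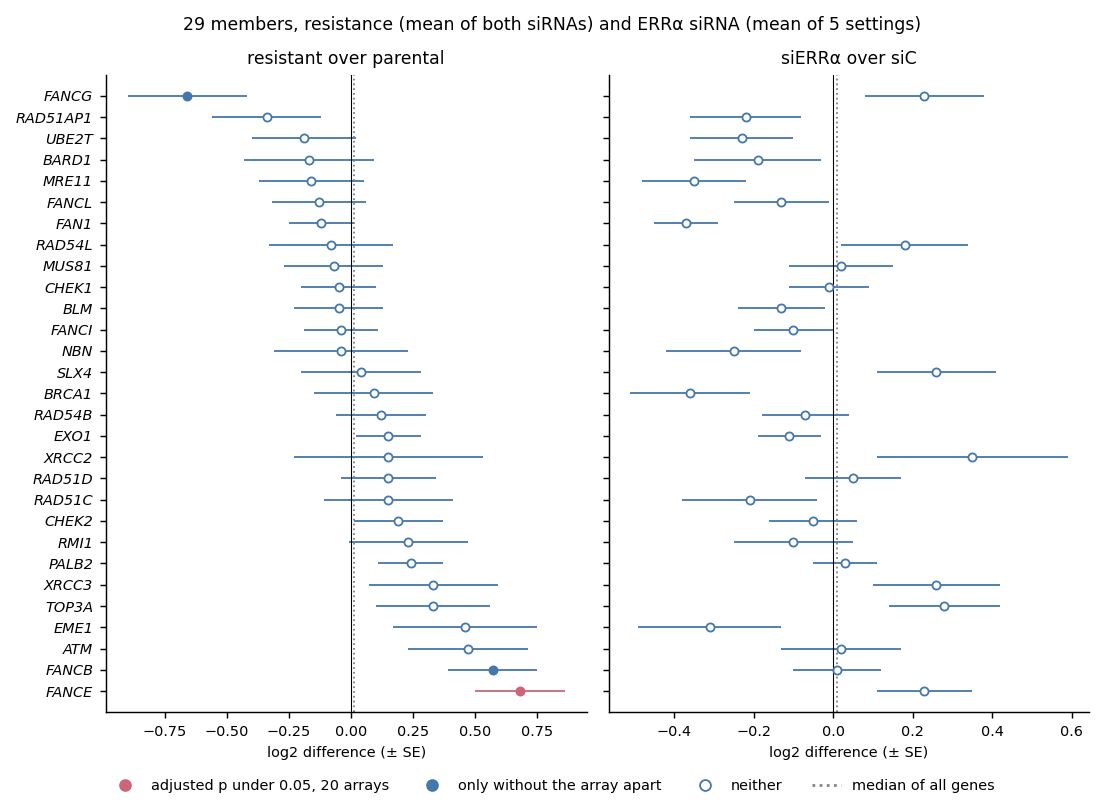
Difference in log2 intensity (points, ± SE) of the 29 members for resistant over parental cells, averaged over both siRNAs, on the left, and for siERRα over siC, averaged over the 5 settings, on the right. FANCE at 0.68 is the 1 member that passed the test with 20 arrays for resistance, FANCB, whose probe was detected on no parental array, and FANCG passed with 19 arrays, and no member passed for siERRα.

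Lapatinib-resistant cells differed from parental cells in few members, and in both directions. The study reported DNA repair among the gene groups upregulated in resistant cells, from these same arrays. The counts here are therefore not independent evidence of a direction. In siC cells 0 of 29 members passed, where 4.5% of all genes did, and in siERRα cells 0, where 5% did, with 1 and 2 members at an unadjusted p under 0.05 with limma and 0 and 3 with the methods' t-test. Averaged over both, FANCE passed, as 1 of 29 members where 13% of all genes did, and FANCB, FANCE and FANCG passed with 19 arrays, where 23.1% did, with the FANCB probe detected only on resistant arrays. The median of the members was 0.09 against 0.01 for all genes, and 13 of the 29 had a negative difference. RAD51D, RAD54B, EME1 and FANCB differed by 0.15, 0.12, 0.46 and 0.57, and their probes were detected on both arrays of resistant groups only. The median and the sign count thus include members that passed the filter through groups where they were high, and neither is evidence of a direction.

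FANCE was 8.55 and 9.10 in parental siC cells and 8.74 and 8.94 in parental siERRα cells, against 9.24 and 9.54 in resistant siC cells and 9.68 and 9.58 in resistant siERRα cells. The 4 resistant arrays were above the other 16 arrays, of which the highest read 9.10. FANCE rose by 0.68 (SE 0.18, 1.60-fold, adjusted p = 0.0265), a call that held in 24 of 30 alternatives. It was lost without parental siC replicate 1 (0.12), parental siERRα replicate 1 (0.0936) or replicate 2 (0.0553), resistant siC replicate 2 (0.106), or resistant siERRα replicate 1 (0.082) or replicate 2 (0.0624). In siC cells alone the difference was 0.56 (SE 0.26, adjusted p = 0.3). After siERRα FANCE differed by 0.02 in parental and by 0.24 in resistant cells, and the difference of 0.23 between the lines (SE 0.37) was not called (adjusted p = 0.999).

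FANCG was 9.55 and 9.85 in parental siC cells and 10.39 and 9.93 in parental siERRα cells, against 8.89 and 9.16 in resistant siC cells and 9.32 and 9.70 in resistant siERRα cells. Within each siRNA both resistant arrays were lower, though resistant siERRα replicate 2 exceeded the lowest parental array. The difference was -0.66 (SE 0.24, adjusted p = 0.0996, or 0.0386 with 19 arrays). FANCB was 5.24 to 5.44 on the 4 parental arrays and 5.67 to 6.11 on the 4 resistant arrays, a difference of 0.57 (SE 0.18, adjusted p = 0.0529, or 0.0323 with 19 arrays). The probe of FANCB was detected on the 4 resistant arrays and on no other, so that it entered the measured set through the groups in which it was high, and a second FANCB probe, through which the gene was also detected in parental siC cells, differed by 0.11. In siERRα cells the brighter FANCB probe lay at least 1.38-fold above the parental background floor in resistant cells. The difference was not called (adjusted p = 0.204), and the second probe gave 0.32. As the brighter probe passed the filter through resistant groups only, this bound is no evidence of a direction.

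**Figure D5:**
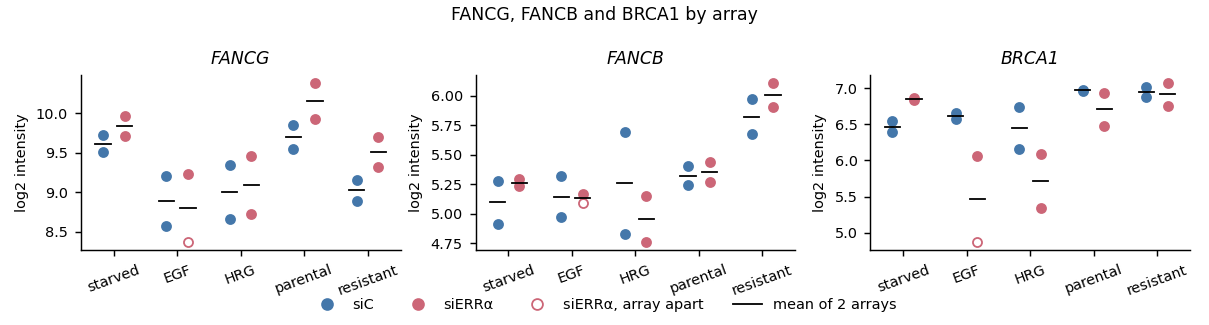
Log2 intensity on each of the 20 arrays (points) and the mean of 2 arrays (bars) for FANCG, FANCB and BRCA1, by setting and siRNA. FANCG is lower in resistant than in parental cells within each siRNA, and FANCB is higher on the 4 resistant arrays, at 5.67 to 6.11, than on the 4 parental arrays. BRCA1, on its brighter probe, is lowest in siERRα cells given a growth factor, and its second probe is not plotted.

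BRCA1 differed by 0.09 with resistance, PALB2 by 0.24, ATM by 0.47 (adjusted p = 0.247) and MUS81 by -0.07, none of them called, and the remaining members lay between -0.34 and 0.46. Of the genes of proliferation and S phase, CCNE1, a cyclin of S phase entry, fell by 0.81 (adjusted p = 0.00167) and E2F2 by 0.92 (adjusted p = 0.00852), with CDT1 and GINS2 also lower, and RRM1, a subunit of ribonucleotide reductase, rose by 0.37 (adjusted p = 0.0352). Of the 44 other recombination and Fanconi genes, UIMC1, which targets BRCA1 to ubiquitin, fell by 0.50 (adjusted p = 0.00691) and FAAP24, a partner of FANCM, by 0.54 (adjusted p = 0.04), and 0 rose with 20 arrays. With 19 arrays 4 rose, MCM8, BABAM2, MND1 and RPA3, and 3 fell, UIMC1, FAAP24 and MAD2L2. In the proliferation list the counts of 1 higher and 4 lower became 3 and 7.

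Parental cells in serum and starved cells came from the 2 experiments, so that the experiment and the serum cannot be told apart. Averaged over both siRNAs 0 members passed with 20 arrays (3.18% of all genes, 2 members at an unadjusted p under 0.05, and 1 member by the methods' t-test), and with 19 arrays 1 did (8.75% of all genes), FAN1, higher in parental cells by 0.35 (adjusted p = 0.0428). FANCE differed by 0.15 (SE 0.18) and MUS81 by 0.16 (SE 0.20) between them, so that neither differed beyond its error.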

How the data were processed

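RNA from 20 samples of SKBr3 cells was hybridized to Illumina HumanHT-12 v4 arrays. The authors deposited a raw table with the bead intensity of 47323 probes, without background subtraction, and the detection p-value that the authors' software gave each probe, and they deposited a normalized table made with lumi in FlexArray, read here as log2 (column medians 7.55 to 7.57, centring unknown). The study's own tests were SAM and the Student test, and none of its results was used. Arrays had median intensities of 121 to 140, and 0 columns lacked a sample.

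Intensities were corrected with normexp on detection p-values (offset 16), quantile-normalized and log2-transformed in limma 3.58.1 under R 4.3.3, so that the offset understates changes of dim genes. Of the probes 15444 were detected on both arrays of a group, 12414 of them with 1 symbol, and the brightest probe stood for each of 9592 genes. In the platform annotation 30113 probes carried 1 symbol, 8 several and 17202 none, and 0 symbols needed an update through the 30074 matched Entrez identifiers. One fit of 10 group means on 20 arrays left 10 residual degrees of freedom, and the fit without EGF siERRα replicate 1 left 9. Two-sided p-values of 22 comparisons were adjusted over all genes by the Benjamini-Hochberg method, and calls were made below 0.05. Where all probes of a gene were below detection in a group, a fold is a lower bound, computed on each array against the lowest signal of a detected probe or the probe's own signal if higher. The fit was tested on simulated data.

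The members and gene lists were chosen with earlier results of these data known. Named with their values were BRCA1 and PALB2, each member called with 20 or 19 arrays, and the 3 members with the smallest p for EGF, HRG and resistance in siC cells and for siERRα on average, and genes of other lists only where called, at most 4 a list and direction. Promoter windows are those of RefSeq. Alternatives were other background corrections, the deposited normalized table, other filters and probe summaries, array weights, the replicate number as a block, fits on the groups compared alone, the methods' t-test and leaving out each array. The methods' t-test is a Student test of the arrays of one side against those of the other. In averaged comparisons it took all arrays of a side as replicates, so that differences between siRNAs or settings stayed in its error.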

Additional observations from a re-analysis of the deposited data

How the results depend on the processing

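No called difference of a named member changed sign under any alternative, and other scalings moved the median of all genes by at most 0.035. The counts of members called moved as follows. After EGF in siC cells (1 of 29) the count was 2 with the mean of all probes, 5 with array weights and 0 with the methods' t-test. After HRG in siC cells (1) it was 0 with no detection filter, 3 with array weights, 0 on the compared groups alone and 0 with the methods' t-test. After EGF in siERRα cells (9) it was 5 with no filter, 5 with probes detected on all 20 arrays, and 0 with array weights, on the compared groups alone and with the methods' t-test. After HRG in siERRα cells (1) it was 2 with probes detected on all 20 arrays, 6 with array weights, and 0 on the compared groups alone and with the methods' t-test. For EGF averaged over both siRNAs (10) it was 6 with no filter, 1 with array weights, 1 on the compared groups alone and 2 with the methods' t-test. For HRG averaged (5) it was 3 with the deposited normalized table, 3 with no filter, 3 with probes detected on all 20 arrays, 11 with array weights, 10 on the compared groups alone and 9 with the methods' t-test. For siERRα in EGF-treated cells (1) it was 0 with an offset of 50, no background correction, the normalized table, probes detected on all 20 arrays, array weights, the compared groups alone and the methods' t-test. For resistance in siERRα cells (0) it was 1 with no background correction, the normalized table and the compared groups alone, and for resistance averaged (1) it was 3 with array weights, 4 on the compared groups alone and 2 with the methods' t-test. For parental over starved cells, averaged (0), it was 1 with array weights, on the compared groups alone and with the methods' t-test. Array weights gave both EGF siERRα arrays a weight of 0.107.

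The replicate numbers were not taken as pairs, since the correlation of replicate differences between groups ran from -0.0804 to 0.315 over 45 pairs of groups and passed 0.1 in 21. Each of the 20 arrays nevertheless went on average with its own number, though both arrays of a group must give the same answer. The array names in the deposited table are numbers for replicate 1 and letters for replicate 2. A shared batch is therefore possible, and what the numbers mark is not given in the sources used here. A batch would hold 1 array of each group, which allows no test within it. With the replicate number as a block, 1 member passed for resistance in siERRα cells and 2 for resistance averaged, and the counts averaged over both siRNAs were 12 after EGF and 6 after HRG, and no other count moved by over 1.5 times.

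Leaving out 1 array gave 0 to 5 members after EGF and 0 to 4 after HRG in siC cells, 1 to 20 and 0 to 6 in siERRα cells, and 4 to 20 and 1 to 11 averaged. It gave 0 to 17 for siERRα in EGF-treated cells, 0 to 9 for siERRα averaged, 0 to 14 for the siERRα response in EGF-treated less that in starved cells, 0 to 3 for resistance averaged and 0 to 1 for parental over starved cells averaged, and 0 in each of the others. The counts of 20, 17, 14 and 9 were those without EGF siERRα replicate 2, which leaves the array that stood apart alone in its group, where it is assumed to vary like the other groups. The methods' t-test was not run for the 3 differences of responses. Probes near background limit RAD51D, RAD54B, EME1, FANCB, FAN1 and BLM, and BRCA1, MRE11, ATM, SLX4 and XRCC3 in the groups where 1 of 2 arrays was detected.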
